A study of Rattus norvegicus with 6 samples.

Results

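The genes described here encode the subunits of the serine/threonine phosphatases PP1, PP2A, calcineurin, PP4, PP5 and PP6. They were taken from the deposited table by symbol: every feature named Ppp followed by a family digit from 1 to 6, the letter c (catalytic) or r (regulatory) and a suffix, leaving out Ppp1r1b (DARPP-32). The rule found 73 of 32662 features, of which 41 belonged to PP1, 16 to PP2A, 5 to calcineurin, 6 to PP4, 1 to PP5 and 4 to PP6. No measured value entered the rule. Of the 73 members, 64 had a mean of at least 0.5 FPKM (fragments scaled by transcript length and by mapped fragments, the authors' unit) over the 6 libraries and could be tested, among 14043 such features.

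RNA came from the amygdala, a forebrain region that processes emotional and social signals, of male Sprague Dawley rats, an outbred laboratory strain, at postnatal day 38. No genotype or drug is labelled in either group. Rats of the first group (B-CTRL, 3 libraries) had been through a social play test before RNA was taken, and rats of the second group (NB-CTRL, 3 libraries) had not been tested. Whether each library is its own animal is not labelled, and p-values therefore cover the spread between libraries, which may be technical.

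Protein phosphatases remove phosphate from serine and threonine and so reverse the work of kinases. A few catalytic subunits serve many targets because they bind to a large set of regulatory subunits, which choose the substrate, the place in the cell or the level of activity. PP1 pairs a catalytic subunit with inhibitors or targeting proteins, PP2A adds a scaffold and a B subunit, and calcineurin is switched on by calcium through calmodulin and its own calcium-binding B subunit. In neurons, PP1 and calcineurin are known for long-term depression of synapses and for trimming the signals of calcium and dopamine at dendritic spines.

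Some features of the libraries bear on every value below. No fragment counts are in the table and library depth is therefore unknown, and with 3 libraries against 3 an exact permutation test of a single gene cannot go below 0.1. FPKM sums ran from 579141 to 641725 in B-CTRL and from 522422 to 536937 in NB-CTRL, without overlap. B-CTRL 1 went against its label of male, since the Y-linked genes Eif2s3y and Kdm5d were at 0.317 and 0.0286 FPKM there against at least 49.5 and 8.37 FPKM in each other library. The same library held a choroid plexus marker sum of 7239 FPKM over 6 genes against at most 28.2 elsewhere. B-CTRL 2 stood farthest from the rest, with a root mean square log2 distance of 0.73 or more to every other library. The 8 markers of amygdala nuclei were matched in all libraries, with sums of 158 to 218 FPKM, and the 5 neuronal markers summed to 1335 to 1792 FPKM. Lypd1 made up most of the amygdala sum, at 83.8 to 158 FPKM, and some single markers differed far more than the sum. Rspo2 ran from 0.299 FPKM in B-CTRL 2 to 19.3 in B-CTRL 1, and Cyp26b1 from 1.25 in B-CTRL 3 to 11.8 in NB-CTRL 2. A listed 0 can be a failed estimate, since Eno2, which neurons express strongly, was at 0.0442 FPKM or less in every library.

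Phosphatase subunit RNA was abundant in every library. Members made up 0.691% to 0.885% of the FPKM sum, and 15 tested members averaged 100 FPKM or more, 35 lay from 10 to under 100 and 14 from 0.5 to under 10. No member passed the adjusted threshold of 0.05 between B-CTRL and NB-CTRL in limma, and neither did any other feature (0% called, lowest adjusted p 0.40 among members and 0.254 among all features). At an unadjusted p under 0.05, 1 of 64 members was higher in B-CTRL (Ppp2r3c) and 3 were lower (Ppp1r26, Ppp1r10 and Ppp1r12b), while 6.25% and 6.07% of all tested features were higher and lower. Together these were 4 of 64 members (6.25%) against 12.3% of features in either direction. Single libraries set these shares: without B-CTRL 3 they were 32.8% of members (9 higher, 12 lower) against 25.9% of features, and without NB-CTRL 2 they were 0% against 3.67%. All differences below are B-CTRL minus NB-CTRL on the log2(FPKM + 0.5) scale, and values per library are listed in the order of the replicate numbers 1, 2 and 3. Levels of different genes were set side by side per length, as FPKM.

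The enzymes of PP1 come from 3 genes, and Ppp1ca was the most abundant of them. Ppp1ca (PP1 alpha, rn6 chr1:219439952-219443570) stood at 289, 428 and 449 FPKM in the B-CTRL libraries, with 339.7, 225 and 308 FPKM in the NB-CTRL libraries. B-CTRL 3 was highest and NB-CTRL 2 lowest, and the groups overlapped because B-CTRL 1 lay below NB-CTRL 1 and 3. The difference was 0.41 log2 (SE 0.23, 95% interval -0.14 to 0.96, limma adjusted p = 0.429). Ppp1cb (PP1 beta, the isoform of myosin phosphatase, rn6 chr6:23549316-23581052) stood at 189, 249 and 181 FPKM in the B-CTRL libraries, with 152, 149.8 and 177 FPKM in the NB-CTRL libraries. Its groups did not overlap, as each B-CTRL library lay above each NB-CTRL library, by 0.36 log2 (SE 0.16, 95% interval -0.023 to 0.74, limma adjusted p = 0.40). Ppp1cc (PP1 gamma, found at dendritic spines, rn6 chr12:39864294-39882030) stood at 152, 211 and 195 FPKM in the B-CTRL libraries, with 157, 125 and 174 FPKM in the NB-CTRL libraries. B-CTRL 2 was highest, NB-CTRL 2 was again lowest and the groups overlapped, with a difference of 0.29 log2 (SE 0.18, 95% interval -0.14 to 0.73, limma adjusted p = 0.464).

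All 3 PP1 catalytic genes thus had the higher mean in B-CTRL, none past the threshold. The scale mattered for their size, in a direction that depended on the method. After quantile normalization, which removes the unequal FPKM sums, the differences shrank to 0.18 for Ppp1ca, 0.16 for Ppp1cb and 0.10 for Ppp1cc. Under median scaling they grew to 0.51, 0.46 and 0.39. Leaving out B-CTRL 1 gave 0.61, 0.41 and 0.43, and leaving out B-CTRL 2 gave 0.33, 0.22 and 0.20. Shares within the family do not depend on the scale of a library. Ppp1ca made up 45% to 54.4% of the summed PP1 catalytic FPKM, Ppp1cb 21.9% to 30.1% and Ppp1cc 23.7% to 26.4%. The order of alpha over the other isoforms held in all 6 libraries, while the order of Ppp1cb and Ppp1cc changed between libraries. The Ppp1ca to Ppp1cb ratio was highest in B-CTRL 3 (2.48) and NB-CTRL 1 (2.23) and lowest in NB-CTRL 2 (1.5) and B-CTRL 1 (1.52), so it did not sort by group.

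Promoters of the PP1 enzymes and of Ppp3ca, the most abundant member, are shown because these genes share a base composition that the choice of members did not use. Each is the 250 bases before the RefSeq start in build GRCr8, written 5′ to 3′ on the gene's strand, with matches to the GC box letters GGGCGG or CCGCCC in capitals, overlapping matches merged. They lie at chr1:210914326-210914575 (plus strand) for Ppp1ca, chr6:29712836-29713085 (minus strand) for Ppp1cb, chr12:40061302-40061551 (minus strand) for Ppp1cc and chr2:227839357-227839606 (plus strand) for Ppp3ca.
Ppp1ca: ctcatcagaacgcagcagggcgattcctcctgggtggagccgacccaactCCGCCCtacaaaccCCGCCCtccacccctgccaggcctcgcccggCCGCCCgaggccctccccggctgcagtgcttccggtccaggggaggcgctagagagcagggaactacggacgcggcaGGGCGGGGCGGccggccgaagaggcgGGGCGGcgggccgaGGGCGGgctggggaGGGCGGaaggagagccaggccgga
Ppp1cb: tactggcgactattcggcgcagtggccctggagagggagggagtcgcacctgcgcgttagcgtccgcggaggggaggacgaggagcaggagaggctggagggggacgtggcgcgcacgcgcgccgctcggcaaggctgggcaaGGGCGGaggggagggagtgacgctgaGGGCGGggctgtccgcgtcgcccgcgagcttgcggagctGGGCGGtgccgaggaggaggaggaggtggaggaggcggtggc
Ppp1cc: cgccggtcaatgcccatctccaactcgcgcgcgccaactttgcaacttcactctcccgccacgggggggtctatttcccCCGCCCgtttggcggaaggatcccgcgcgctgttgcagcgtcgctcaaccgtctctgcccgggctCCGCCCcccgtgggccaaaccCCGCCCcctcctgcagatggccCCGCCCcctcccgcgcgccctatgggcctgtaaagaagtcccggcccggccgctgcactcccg
Ppp3ca: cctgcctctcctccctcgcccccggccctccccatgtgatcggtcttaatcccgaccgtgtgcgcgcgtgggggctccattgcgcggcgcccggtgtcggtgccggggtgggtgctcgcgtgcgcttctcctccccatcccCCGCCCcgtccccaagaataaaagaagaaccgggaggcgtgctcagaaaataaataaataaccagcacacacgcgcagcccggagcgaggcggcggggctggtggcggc
The 4 windows held 26, 30, 29 and 28 CpG dinucleotides and 8, 3, 4 and 1 GC box matches in that order. All 4 held the box at least once, and Ppp1ca held the most copies. Of the other catalytic genes with a window, Ppp2ca and Ppp3cb held the box, and Ppp4c, Ppp5c and Ppp6c did not.

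Of the 73 members, 60 had a window in the RefSeq promoter table, which holds 19005 protein-coding promoters. The members' median was 19 CpG (range 1 to 43) against 9 over all promoters, and 48 of 60 were at or above that median of all. A GC box was found on either strand in 31 members (51.7%) against 40.3% of all promoters, a CCAAT box (CCAAT or ATTGG) in 22 (36.7%) against 35.5%, and TATAAA or TTTATA in 6 (10%) against 12.3%. The palindromic cAMP response element TGACGTCA was present in 4 members (6.67%) against 2.03%. These were Ppp1r12c, Ppp1r15a, Ppp2r2d and Ppp2ca. Ppp1r15a and Ppp2r2d had the higher mean in B-CTRL and Ppp1r12c the lower, while Ppp2ca was listed at 0. A match is a string of letters and was not tested as a binding site.

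The inhibitors of PP1 were led by Ppp1r2 (inhibitor-2, which also helps to assemble the enzyme) at 153, 309 and 234 FPKM in the B-CTRL libraries, with 173, 123 and 236 FPKM in the NB-CTRL libraries. It was highest in B-CTRL 2 and lowest in NB-CTRL 2, with overlapping groups and a difference of 0.38 log2 (SE 0.32, 95% interval -0.38 to 1.14, limma adjusted p = 0.563). That difference was 0.65 without B-CTRL 1 and 0.14 without B-CTRL 2. Ppp1r1a (inhibitor-1, which blocks PP1 once protein kinase A has phosphorylated it) stood at 82.1, 90.4 and 125 FPKM in the B-CTRL libraries, with 81.3, 49.9 and 85.6 FPKM in the NB-CTRL libraries. B-CTRL 3 was highest and NB-CTRL 2 lowest, and B-CTRL 1 lay between NB-CTRL 1 and NB-CTRL 3, so the groups overlapped (0.47 log2, SE 0.25, 95% interval -0.13 to 1.07, limma adjusted p = 0.420). Ppp1r14a (CPI-17, an inhibitor of myosin phosphatase that protein kinase C activates) stood at 118, 106 and 74.8 FPKM in the B-CTRL libraries, with 84.2, 65.7 and 44.0 FPKM in the NB-CTRL libraries. It held the widest positive difference of all tested members, 0.64 log2 (SE 0.27, 95% interval -0.0057 to 1.29, limma adjusted p = 0.40), and its interval reached just below 0. Ppp1r11 (inhibitor-3), which shares its locus with Rnf39 in the table, stood at 75.4, 112 and 86.9 FPKM in the B-CTRL libraries, with 80.9, 85.6 and 84.4 FPKM in the NB-CTRL libraries, and differed by 0.11 log2 (SE 0.16, 95% interval -0.28 to 0.50, limma adjusted p = 0.751). Its B-CTRL values straddled the NB-CTRL values, with B-CTRL 1 lowest and B-CTRL 2 highest of the 6 libraries.

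Of the 7 tested PP1 inhibitors 6 had the higher mean in B-CTRL (median difference 0.26), against 49.7% of all tested features. The exception was Ppp1r14c (KEPI) at -0.088. Ppp1r14b (PHI-1) at a mean of 51.8 FPKM and Ppp1r1c at 0.619 FPKM differed by 0.045 and 0.26. None of the 7 reached an unadjusted p under 0.05.

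**Figure D1:**
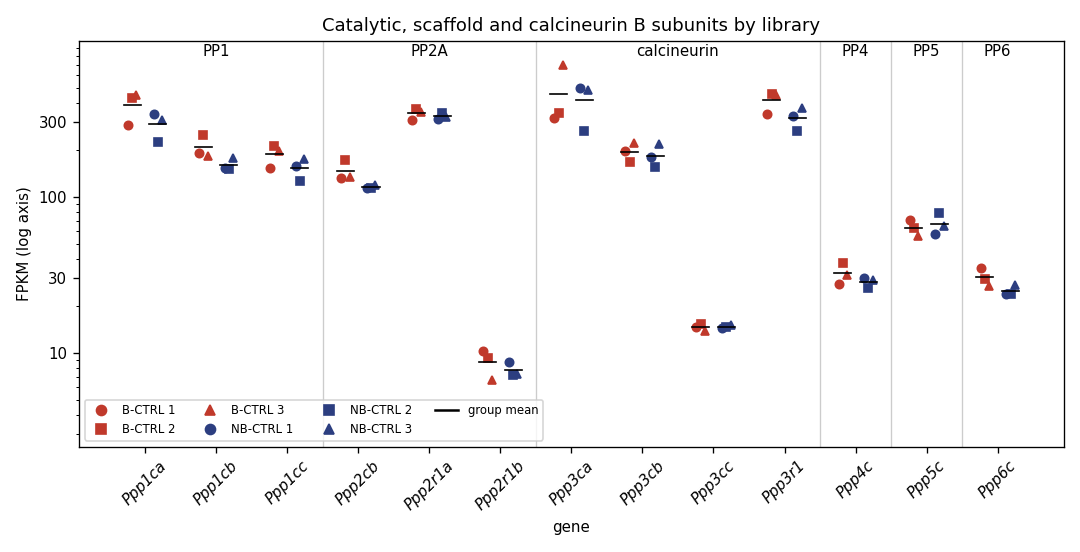
FPKM (log axis) of the PP1, PP2A, calcineurin, PP4, PP5 and PP6 catalytic subunits, the PP2A scaffolds and calcineurin B in each library, with 1 marker per library, B-CTRL in red, NB-CTRL in blue and a bar at each group mean. Ppp1cb and Ppp2cb show no overlap between groups, and Ppp3ca in B-CTRL 3 (696 FPKM) lies above every other point.

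PP1 subunits of the myosin phosphatase targeting family leaned the other way, with 1 of 5 higher in B-CTRL, against 49.7% of all tested features. Their median difference was -0.28. Ppp1r12b (MYPT2, the myosin phosphatase subunit of striated muscle and brain, rn6 chr13:51584298-51784639) stood at 13.0, 7.59 and 17.8 FPKM in the B-CTRL libraries, with 20.1, 20.7 and 23.1 FPKM in the NB-CTRL libraries. Each B-CTRL library lay below each NB-CTRL library, and B-CTRL 2 was lowest (-0.79 log2, SE 0.29, 95% interval -1.47 to -0.10, limma adjusted p = 0.40, unadjusted p = 0.0295). Ppp1r12b spans 200 kb in rn6, and with each library's trend over locus length removed the difference was -0.49. Without B-CTRL 2 it was -0.47. Ppp1r12c (MBS85), the most abundant of the group at a mean of 71.3 FPKM, differed by -0.16, and Ppp1r12a (MYPT1), the classical smooth muscle subunit, by 0.020 at 27.2 FPKM. Ppp1r16b (TIMAP, known from endothelium) stood at 51.6, 13.9 and 62.3 FPKM in the B-CTRL libraries, with 70.5, 43.2 and 48.7 FPKM in the NB-CTRL libraries. Only B-CTRL 2 was apart from the others there, and the difference of -0.57 turned to 0.098 without it.

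Ppp1r9b (spinophilin) and Ppp1r9a (neurabin-1) anchor PP1 to actin in dendritic spines. Spinophilin stood at 138, 108 and 211 FPKM in the B-CTRL libraries, with 174, 118 and 172 FPKM in the NB-CTRL libraries, with B-CTRL 3 highest and B-CTRL 2 lowest. The difference was -0.057 log2 (SE 0.27, 95% interval -0.71 to 0.59, limma adjusted p = 0.931), and under median scaling it was 0.040, of the opposite sign. Neurabin-1 stood at 21.8, 7.49 and 57.1 FPKM in the B-CTRL libraries, with 50.8, 36.5 and 46.9 FPKM in the NB-CTRL libraries, so B-CTRL 2 was below every other library and B-CTRL 3 above. Its difference of -1.04 log2 (SE 0.64, 95% interval -2.56 to 0.47, limma adjusted p = 0.457) was the largest in size among tested members, and its SE was also wide. Without B-CTRL 2 it was -0.32, and without B-CTRL 3 -1.75. The spinophilin to neurabin-1 ratio was 14.4 in B-CTRL 2 and 6.32 in B-CTRL 1, while the other 4 libraries, B-CTRL 3 among them, lay from 3.23 to 3.69. Ppp1r9a is one of the longest members at 263 kb, against 16.0 kb for Ppp1r9b.

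Nuclear and stress-related PP1 subunits were at low or middle levels. Ppp1r10 (PNUTS, which holds PP1 at chromatin and acts on RNA polymerase II, rn6 chr20:3329676-3344286) stood at 11.4, 9.49 and 14.1 FPKM in the B-CTRL libraries, with 16.3, 16.6 and 15.4 FPKM in the NB-CTRL libraries. The groups did not overlap, with a difference of -0.47 log2 (SE 0.17, 95% interval -0.86 to -0.068, limma adjusted p = 0.40) and an unadjusted p of 0.0276. Ppp1r26, a nucleolar protein (rn6 chr3:7035168-7038421), stood at 6.08, 3.14 and 5.65 FPKM in the B-CTRL libraries, with 7.70, 11.1 and 7.55 FPKM in the NB-CTRL libraries. Here too each B-CTRL library lay below each NB-CTRL library (-0.79 log2, SE 0.27, 95% interval -1.44 to -0.14, limma adjusted p = 0.40, unadjusted p = 0.0235). Without B-CTRL 2, the lowest library for both, the differences were -0.33 for Ppp1r10 and -0.52 for Ppp1r26. Ppp1r7 (SDS22) and Ppp1r8 (NIPP1), which share their loci with small RNA features, averaged 64.5 and 21.2 FPKM and differed by 0.25 and 0.17.

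Ppp1r15a (GADD34) is induced by stress and Ppp1r15b (CReP) is made constantly, and both send PP1 to the translation factor eIF2alpha. Ppp1r15a stood at 13.3, 13.9 and 17.1 FPKM in the B-CTRL libraries, with 12.1, 12 and 11.9 FPKM in the NB-CTRL libraries. Its NB-CTRL values were nearly alike and all below B-CTRL, and B-CTRL 3 was highest (0.28 log2, SE 0.14, 95% interval -0.060 to 0.61, limma adjusted p = 0.412). Without B-CTRL 3 the difference was 0.17. Ppp1r15b averaged 13.6 FPKM and differed by 0.082, with an interval of -0.26 to 0.42.

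Of the glycogen-targeting subunits, Ppp1r3c (PTG, which brings PP1 to glycogen synthase) was the most abundant, at 27.1, 24.4 and 18.6 FPKM in the B-CTRL libraries, with 17.5, 19.0 and 16.5 FPKM in the NB-CTRL libraries. B-CTRL 1 and 2 were high and B-CTRL 3 lay below NB-CTRL 2 (0.38 log2, SE 0.17, 95% interval -0.019 to 0.78, limma adjusted p = 0.40), and without B-CTRL 1 the difference was 0.27. Ppp1r3g, Ppp1r3d and Ppp1r3e averaged 4.68, 4.17 and 2.30 FPKM and differed by 0.27, 0.081 and -0.40. ASPP proteins bind PP1 and act on p53. Both tested members of that family had lower means in B-CTRL, with Ppp1r13b at -0.25 and Ppp1r13l at -0.31, and each was lowest in B-CTRL 2. Ppp1r13b, at a mean of 22.3 FPKM, shares its locus with Zfyve21 at 25.6 FPKM. The remaining PP1 members with a test were Ppp1r18 (phostensin, 0.33), Ppp1r16a (MYPT3, -0.28), Ppp1r21 (0.070), Ppp1r37 (-0.21), Ppp1r32 (0.41) and Ppp1r36 (0.48), none of them at an unadjusted p under 0.05. Ppp1r18, at a mean of 5.93 FPKM, shares its locus with RGD1302996 at 61.2 FPKM and Dhx16 at 30.7 FPKM, among other features.

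PP2A was represented by 1 measurable enzyme. Ppp2cb (PP2A catalytic beta) stood at 131, 172 and 133 FPKM in the B-CTRL libraries, with 114, 113 and 119 FPKM in the NB-CTRL libraries, and each B-CTRL library lay above each NB-CTRL library. B-CTRL 2 was the highest, and the difference was 0.32 log2 (SE 0.14, 95% interval -0.013 to 0.66, limma adjusted p = 0.40). That difference was 0.16 after quantile normalization, 0.42 under median scaling and 0.20 without B-CTRL 2. Ppp2ca (catalytic alpha) was listed at 0 in all 6 libraries. Its feature lies on an unplaced scaffold and shares its locus there with another feature at 0, so no level of the alpha enzyme can be given.

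Both scaffolds, on which the PP2A holoenzyme is built, were expressed very unequally. Ppp2r1a stood at 310.3, 366 and 348 FPKM in the B-CTRL libraries, with 314, 342 and 324 FPKM in the NB-CTRL libraries, so all 6 libraries lay close together, with a difference of 0.061 log2 (SE 0.12, 95% interval -0.23 to 0.35, limma adjusted p = 0.822). Ppp2r1b stood at 10.3, 9.20 and 6.69 FPKM in the B-CTRL libraries, with 8.72, 7.16 and 7.28 FPKM in the NB-CTRL libraries, with a difference of 0.15 log2 (SE 0.19, 95% interval -0.31 to 0.61, limma adjusted p = 0.706). The ratio of Ppp2r1a to Ppp2r1b ran from 30.2 to 51.9 and was highest in B-CTRL 3 and lowest in B-CTRL 1, so both extremes lay in B-CTRL. After quantile normalization Ppp2r1a was at -0.18, of the opposite sign, and under median scaling at 0.16.

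The B subunits choose the substrate of PP2A. Of the B55 class, Ppp2r2b, known for its high level in brain, stood at 123, 144 and 108 FPKM in the B-CTRL libraries, with 92.7, 110.3 and 116 FPKM in the NB-CTRL libraries, and differed by 0.23 log2 (SE 0.16, 95% interval -0.14 to 0.60, limma adjusted p = 0.492). Ppp2r2a stood at 82.2, 130.0 and 124 FPKM in the B-CTRL libraries, with 104, 70.2 and 113 FPKM in the NB-CTRL libraries, and differed by 0.22, with NB-CTRL 2 and B-CTRL 1 lowest. Ppp2r2c, also known from brain, stood at 87.9, 40.9 and 137 FPKM in the B-CTRL libraries, with 125, 102 and 118 FPKM in the NB-CTRL libraries. B-CTRL 2 was far below the rest and B-CTRL 3 highest, so the groups overlapped (-0.54 log2, SE 0.40, 95% interval -1.49 to 0.42, limma adjusted p = 0.522). Ppp2r2c was thus about level with Ppp2r2b in most libraries, with ratios of 0.716 to 1.34, but at 0.284 in B-CTRL 2. Ppp2r2d averaged 32.2 FPKM and differed by 0.16.

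Of the B56 class, Ppp2r5c was the most abundant at 102 FPKM and differed by 0.0062, with an interval of -0.32 to 0.34. Ppp2r5d, at 53.0 FPKM, differed by -0.0062 (-0.44 to 0.43). Ppp2r5e stood at 36.1, 33.9 and 37.0 FPKM in the B-CTRL libraries, with 40.0, 42.6 and 45.4 FPKM in the NB-CTRL libraries, and each B-CTRL library lay below each NB-CTRL library (-0.25 log2, SE 0.12, 95% interval -0.53 to 0.022, limma adjusted p = 0.401). Ppp2r5a differed by 0.31. The class thus split into 2 higher and 2 lower members.

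Among the calcium-binding B'' subunits Ppp2r3c (rn6 chr6:76056498-76079664) stood at 17.8, 21.4 and 15.3 FPKM in the B-CTRL libraries, with 10.9, 13.2 and 15.5 FPKM in the NB-CTRL libraries. NB-CTRL 3 lay above B-CTRL 3, so the groups overlapped, although this was the only member higher in B-CTRL at an unadjusted p under 0.05 (0.45 log2, SE 0.19, 95% interval 0.0043 to 0.89, limma adjusted p = 0.40, unadjusted p = 0.0483). It was 0.32 without B-CTRL 2, the highest library. Ppp2r3a and Ppp2r3b averaged 5.32 and 4.85 FPKM and differed by -0.12 and -0.35, the first turning to 0.14 with the length trend removed. Ppp2r4 (PTPA, an activator of PP2A) averaged 107 FPKM and differed by 0.040.

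Calcineurin contributed the most abundant member of all. Ppp3ca (calcineurin A alpha, the main form in brain, rn6 chr2:241909831-242184854) stood at 319, 346 and 696 FPKM in the B-CTRL libraries, with 499, 263 and 486 FPKM in the NB-CTRL libraries. The highest and the second lowest library were both B-CTRL, and NB-CTRL 2 was lowest, so the groups overlapped (0.089 log2, SE 0.37, 95% interval -0.79 to 0.96, limma adjusted p = 0.918). The sign turned when either extreme library was left out: the difference was -0.27 without B-CTRL 3 and -0.21 without NB-CTRL 2, against 0.30 without B-CTRL 1. The difference was -0.18 after quantile normalization, 0.19 under median scaling and 0.41 with the length trend removed, and the Ppp3ca locus spans 275 kb. Ppp3cb (A beta) stood at 195, 167 and 220.5 FPKM in the B-CTRL libraries, with 179, 154 and 217 FPKM in the NB-CTRL libraries. It differed by 0.089 log2 (SE 0.17, 95% interval -0.32 to 0.50, limma adjusted p = 0.817), with -0.10 after quantile normalization and 0.19 under median scaling. Ppp3cc (A gamma, known from testis and present in brain) stood at 14.6, 15.2 and 13.8 FPKM in the B-CTRL libraries, with 14.3, 14.7 and 14.9 FPKM in the NB-CTRL libraries. It varied least of the catalytic genes between libraries and differed by -0.0088 log2 (SE 0.12, 95% interval -0.29 to 0.27, limma adjusted p = 0.975), or 0.086 under median scaling.

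Ppp3r1 (calcineurin B, the calcium-binding subunit of the enzyme, rn6 chr14:100311172-100394145) stood at 336, 456 and 451 FPKM in the B-CTRL libraries, with 327, 264 and 371 FPKM in the NB-CTRL libraries. B-CTRL 2 and 3 were highest and NB-CTRL 2 lowest, with B-CTRL 1 between the NB-CTRL values (0.37 log2, SE 0.19, 95% interval -0.075 to 0.81, limma adjusted p = 0.411). Its locus overlaps Pno1 and Wdr92 in the table, whose means of 25.1 and 11.7 FPKM are far below it. After quantile normalization the difference was 0.12, under median scaling 0.47, and with the length trend removed 0.57. Ppp3r2, the testis form of the B subunit, was at or below 0.103 FPKM in every library.

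Within calcineurin the isoforms shifted between libraries without following the groups. Ppp3ca made up 60.3% to 74.8% of the catalytic FPKM, Ppp3cb 23.7% to 36.9% and Ppp3cc 1.48% to 3.40%. The Ppp3ca to Ppp3cb ratio was 1.63, 2.07 and 3.16 in the B-CTRL libraries, and 2.78, 1.71 and 2.24 in the NB-CTRL libraries. The ratio of the B subunit Ppp3r1 to Ppp3ca ran from 0.648 in B-CTRL 3 to 1.32 in B-CTRL 2. Summed over isoforms, PP1 held 40.8% to 51.7% of all measured catalytic FPKM and calcineurin 30.7% to 46.4%. PP2A entered that sum through Ppp2cb alone, since Ppp2ca was listed at 0, so these shares may be too high. Calcineurin exceeded PP1 in B-CTRL 3, NB-CTRL 1 and NB-CTRL 3 and PP1 exceeded calcineurin in B-CTRL 1, B-CTRL 2 and NB-CTRL 2.

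PP4, PP5 and PP6 each held a smaller share of the summed catalytic FPKM than PP1 and calcineurin did in every library. Ppp4c, the PP4 enzyme of DNA repair and centrosomes, stood at 27.4, 37.5 and 31.6 FPKM in the B-CTRL libraries, with 30.2, 26.0 and 29.3 FPKM in the NB-CTRL libraries, and differed by 0.16 log2 (SE 0.15, 95% interval -0.20 to 0.52, limma adjusted p = 0.606). Of its regulatory subunits Ppp4r3b stood at 20.4, 19.2 and 18.8 FPKM in the B-CTRL libraries, with 15.6, 14.4 and 17.7 FPKM in the NB-CTRL libraries. Each B-CTRL library lay above each NB-CTRL library, by 0.29 log2 (SE 0.13, 95% interval -0.021 to 0.60, limma adjusted p = 0.40). Ppp4r2, Ppp4r3a, Ppp4r4 and Ppp4r1 differed by 0.036, 0.091, 0.25 and -0.051 at means of 26.3, 18.02, 14.7 and 8.67 FPKM. NB-CTRL 2 was lowest for 5 of the 6 PP4 genes.

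Ppp5c, a phosphatase with its own tetratricopeptide domain that works with Hsp90, stood at 70.5, 63.3 and 56.2 FPKM in the B-CTRL libraries, with 57.5, 78.7 and 64.4 FPKM in the NB-CTRL libraries. NB-CTRL 2 was highest and B-CTRL 3 lowest, the reverse of Ppp3ca and Ppp1ca (-0.072 log2, SE 0.16, 95% interval -0.45 to 0.31, limma adjusted p = 0.840), and median scaling gave 0.025. Ppp6c, the PP6 enzyme, stood at 34.7, 29.5 and 26.9 FPKM in the B-CTRL libraries, with 23.9, 23.7 and 27.3 FPKM in the NB-CTRL libraries. B-CTRL 1 and 2 lay above all NB-CTRL libraries and B-CTRL 3 below NB-CTRL 3 (0.27 log2, SE 0.14, 95% interval -0.065 to 0.61, limma adjusted p = 0.416), and without B-CTRL 1 the difference was 0.17. All 3 regulatory partners, which guide PP6 to its substrates, had the lower mean in B-CTRL. Ppp6r1 stood at 46.8, 44.4 and 63.8 FPKM in the B-CTRL libraries, with 64.3, 59.0 and 62.1 FPKM in the NB-CTRL libraries, a difference of -0.27 log2 (SE 0.16, 95% interval -0.66 to 0.11, limma adjusted p = 0.443). Ppp6r2 stood at 41.1, 34.6 and 48.0 FPKM in the B-CTRL libraries, with 47.2, 50.2 and 47.1 FPKM in the NB-CTRL libraries, a difference of -0.24 log2 (SE 0.15, 95% interval -0.59 to 0.11, limma adjusted p = 0.464). In both, B-CTRL 2 was lowest and B-CTRL 3 lay among the NB-CTRL values, so the groups overlapped. Ppp6r3, which shares its locus with a U6 copy, stood at 27.9, 23.2 and 25.5 FPKM in the B-CTRL libraries, with 25.7, 27.1 and 27.2 FPKM in the NB-CTRL libraries, a difference of -0.065 log2 (SE 0.12, 95% interval -0.36 to 0.23, limma adjusted p = 0.811). Here too B-CTRL 2 was lowest, and the groups overlapped because B-CTRL 1 was the highest library.

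Set side by side, the family medians lay close to 0. The median difference was 0.08 in PP1 (21 of 34 higher), 0.06 in PP2A (10 of 15), 0.09 in calcineurin (3 of 4), 0.13 in PP4 (5 of 6), -0.07 for the 1 PP5 gene and -0.15 in PP6 (1 of 4). PP4 to PP6 together had a median of 0.04, with 6 of 11 higher. Over all 64 members the median was 0.08, with 40 higher (62.5%), against -0.0024 and 49.7% over all tested features. Without B-CTRL 1 the medians were 0.028 in PP1, 0.087 in PP2A, 0.19 in calcineurin, 0.21 in PP4 and -0.17 in PP6. The calcineurin median was -0.019 after quantile normalization and 0.19 under median scaling. The difference between families was not tested, since their members share libraries.

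**Figure D2:**
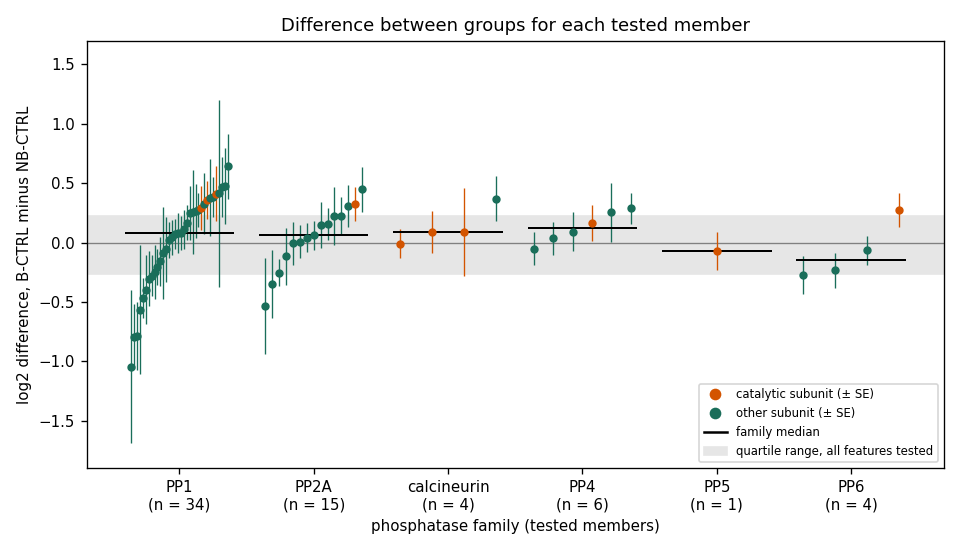
Log2 difference (B-CTRL minus NB-CTRL) of each of the 64 tested members by family, with bars of 1 SE, catalytic subunits in orange and other subunits in green, a black line at each family median and a grey band over the middle quartiles of all tested features. The family medians lie between -0.15 and 0.13, inside the band, and PP1 spreads from -1.04 to 0.64.

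By role, 8 of 10 tested catalytic subunits had the higher mean in B-CTRL (median 0.22), and 32 of 54 regulatory subunits (median 0.05). The number of higher catalytic subunits was 7 after quantile normalization and 10 under median scaling, and 8 without B-CTRL 1. NB-CTRL 2 was the lowest library for 8 of the 10 catalytic subunits and for 23 of all 64 members (35.9%), against 15.5% of tested features.

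Groups did not overlap in 8 members. The 4 higher in B-CTRL were Ppp2cb, Ppp1cb, Ppp4r3b and Ppp1r15a, against 11.7% of all tested features, and the 4 lower were Ppp1r26, Ppp1r10, Ppp1r12b and Ppp2r5e, against 12%. Together they were 12.5% of members, while 23.7% of tested features had no overlap.

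Libraries of 1 group also differed among themselves. The median coefficient of variation of a member was 18.2% in B-CTRL and 11% in NB-CTRL, close to 21.5% and 10.5% over all tested features. The ratio of the highest to the lowest library had a median of 1.65 over members and 1.74 over all tested features. It was 1.87 in PP1, 1.55 in PP2A, 1.58 in calcineurin, 1.41 in PP4 and 1.45 in PP6. B-CTRL 2 was the highest library for 19 members (29.7%, against 29.3% of tested features) and the lowest for 18 (28.1%, against 29.3%).

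**Figure D3:**
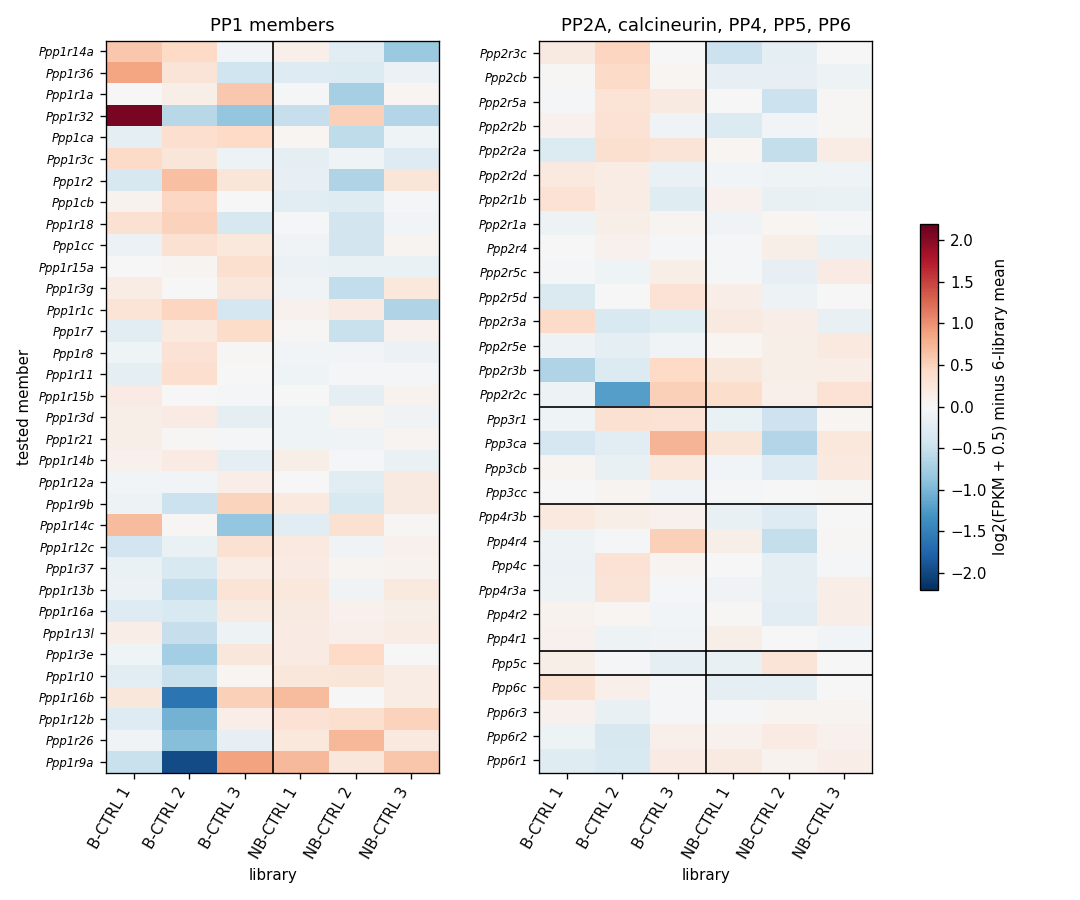
Log2(FPKM + 0.5) of each of the 64 tested members minus its mean over the 6 libraries, with 1 column per library and 1 row per gene ordered by family and by group difference, red above and blue below the mean. Ppp1r9a, Ppp1r16b and Ppp2r2c are bluest in B-CTRL 2, and Ppp1r32 is reddest in B-CTRL 1.

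For 7 members every other library lay over 1.5 times as high as B-CTRL 2: Ppp1r9a, Ppp1r16b, Ppp1r12b, Ppp2r2c, Ppp1r26, Ppp1r3e and Ppp1r13l. This was 10.9% of members and 11.6% of tested features. Members at or above the median locus length of 25.7 kb had a median log2 deviation of -0.047 in that library and shorter members 0.15, and over all tested features the values were -0.14 and 0.13. The excitatory neuron sum, over 5 markers that were all matched, was also lowest in B-CTRL 2, at 121 FPKM against 237 to 708 elsewhere, with Camk2a at 109 against 185 to 362. The part of locus length and of excitatory neurons in these values was not tested gene by gene.

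Marker sums moved with some members, and in bulk RNA fewer cells of a type and less RNA per cell cannot be told apart. The 5 striatal neuron markers, all matched, summed to 389.8, 905 and 1369.8 FPKM in the B-CTRL libraries, with 957, 379 and 827 FPKM in the NB-CTRL libraries, highest in B-CTRL 3 and lowest in NB-CTRL 2 and B-CTRL 1. Ppp3ca, Ppp3cb, Ppp1ca, Ppp1r1a, Ppp1r7, Ppp1r3g and Ppp4r4 were likewise highest in B-CTRL 3 and lowest in NB-CTRL 2, a pattern seen after the values were known that 10.9% of members and 3.64% of tested features showed. A closer match to the striatal sum, with B-CTRL 3 highest and both B-CTRL 1 and NB-CTRL 2 below the rest, was shown by 5 members. These were Ppp1ca, Ppp1r7, Ppp2r5d, Ppp3ca and Ppp4r4, or 7.81% of members against 4.31% of tested features. No tested member put all 6 libraries in the order of the striatal sum, which 0.242% of features did. The sum of 6 markers of thalamus and hypothalamus was highest in NB-CTRL 2, at 67.7 FPKM against at most 14.0 elsewhere. The part of dissection in these members' values was not tested.

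Ppp1r14a moved with the 5 oligodendrocyte markers, all matched, which summed to 15099, 12613 and 7676 FPKM in the B-CTRL libraries, with 12829, 7857 and 6521 FPKM in the NB-CTRL libraries. Both were highest in B-CTRL 1 and lowest in NB-CTRL 3, and the part of oligodendrocytes in its difference was not tested. Ppp1r32 and Ppp1r36 were the only tested members over 1.5 times as high in B-CTRL 1 as in each other library (3.12% of tested members, 2.95% of features). Ppp1r32 was at 6.70, 0.612 and 0.437 FPKM in the B-CTRL libraries, with 0.694, 1.95 and 0.586 FPKM in the NB-CTRL libraries, and Ppp1r36 at 11.9, 7.73 and 4.51 FPKM in the B-CTRL libraries, with 5.04, 4.999 and 5.73 FPKM in the NB-CTRL libraries. Of 4 ependymal markers 3 were matched, with a sum of 24.2 FPKM in B-CTRL 1 against at most 3.68 elsewhere, and the choroid plexus sum was high in the same library. The groups overlapped for both genes over all 6 libraries, as B-CTRL 3 was the lowest library for each, and also without B-CTRL 1. The part of these tissues in both genes was not tested.

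**Figure D4:**
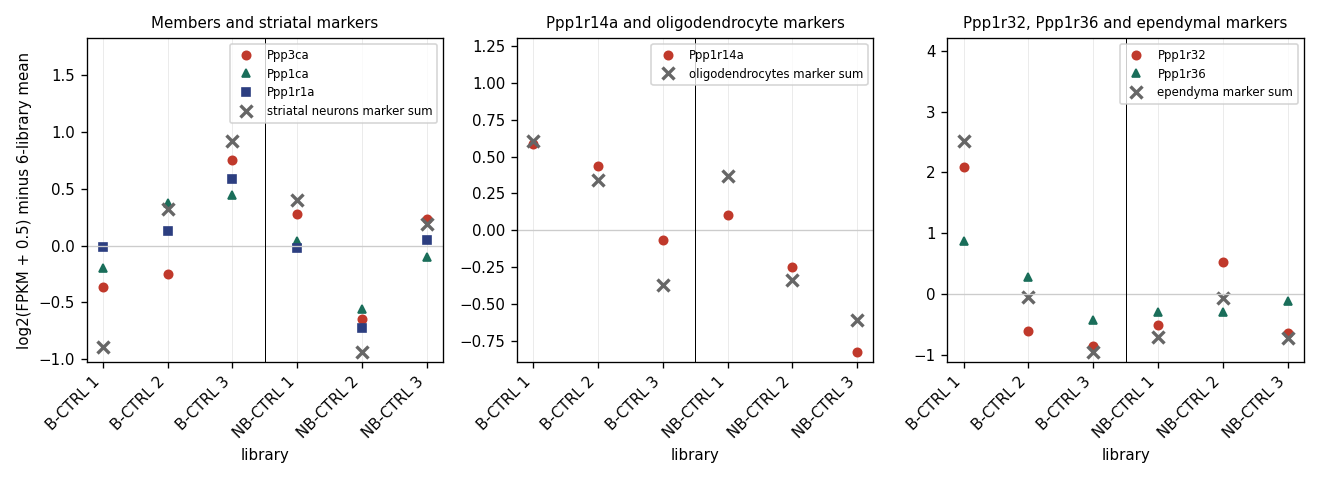
Log2(FPKM + 0.5) minus the mean over 6 libraries for Ppp3ca, Ppp1ca and Ppp1r1a with the striatal marker sum (left), Ppp1r14a with the oligodendrocyte marker sum (middle) and Ppp1r32 and Ppp1r36 with the ependymal marker sum (right), 1 point per library. In the left panel B-CTRL 3 is highest and NB-CTRL 2 lowest for every series plotted, and in the right panel B-CTRL 1 is highest.

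The 9 members below the filter could not be compared. Ppp2ca and Ppp1r27 were listed at 0 in all libraries, and Ppp1r3a, Ppp1r35, Ppp1r14d and Ppp3r2 averaged under 0.1 FPKM. Ppp1r17, a substrate of cGMP-dependent kinase best known from cerebellar Purkinje cells, averaged 0.274 FPKM, with its highest value in NB-CTRL 2 (0.688). Ppp1r42 and Ppp1r3b averaged 0.357 and 0.379 FPKM, each over 1.5 times as high in B-CTRL 1 (0.795 and 0.753) as in any other library. Of all 73 members 11 share a locus with another feature, and their values are uncertain to that extent.

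Genes around the phosphatases were read from a list of 50 regulators and related phosphatases, of which 1 (Ptpa) is the member Ppp2r4. Of the others, 44 genes were tested as 45 features, since Set has 2 features (means of 99.3 and 0.843 FPKM, both with the lower mean in B-CTRL). Of the 45 features 18 had the higher and 27 the lower mean in B-CTRL (median -0.11), and none passed the adjusted threshold in limma. At an unadjusted p under 0.05, 0 of 45 were higher and 5 of 45 lower, beside 6.25% and 6.07% of all features. Elfn1, a synaptic membrane protein that binds PP1, stood at 10.02, 13.1 and 7.98 FPKM in the B-CTRL libraries, with 20.4, 26.2 and 14.8 FPKM in the NB-CTRL libraries, without overlap (-0.94 log2, SE 0.26, limma adjusted p = 0.40). Its relative Elfn2 was -1.09 and also did not overlap. Rcan3, of the family of calcineurin regulators, was -0.92, with B-CTRL 3 just above NB-CTRL 3. The metal-dependent phosphatases Ppm1l and Phlpp2, the second of which acts on Akt, were -0.57 and -1.10, each without overlap.

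By kind, 2 of 6 calcineurin regulators and anchors, 8 of 12 PP2A regulator features (11 genes, Set counted with both its features), 3 of 10 PP1 interactors and 5 of 17 metal-dependent phosphatases had the higher mean in B-CTRL, with medians of -0.24, 0.14, -0.37 and -0.18. The calcineurin inhibitor Rcan1, itself a known target of calcineurin signalling, was at 38.3, 66.8 and 57.7 FPKM in the B-CTRL libraries, with 49.8, 42.1 and 50.5 FPKM in the NB-CTRL libraries, and overlapped between groups. Rcan2 stood at 96.8, 136 and 132 FPKM in the B-CTRL libraries, with 128, 129 and 134 FPKM in the NB-CTRL libraries, lowest in B-CTRL 1.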

How the data were processed

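Poly(A)-selected, directional libraries of rat amygdala RNA were read as pairs of 100 bases, per the labels' protocols. The authors deposited 1 table of FPKM values, with libraries as columns. Tools named in the submitters' processing notes were the aligner STAR (2.5.4b) and Cuffdiff (2.2.1), with genome build rn6, while the annotation release, settings and read filters were not given there. FPKM divides by transcript length and library size and holds no depth.

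Values were used as deposited. Features averaging 0.5 FPKM or more were kept, log2(FPKM + 0.5) was taken, which understates differences of low genes, and limma 3.58.1 in R 4.3.3 compared B-CTRL with NB-CTRL over all kept features, 2-sided, with an intensity trend and no covariates. Benjamini-Hochberg adjustment was used, with adjusted p under 0.05 as the threshold, and the script was tested on simulated data. Shares and ratios were computed from FPKM. RefSeq tables of assembly GRCr8 gave synonyms and promoter sequences only, and coordinates of members are those of the deposited table in rn6.

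The members and lists were chosen with earlier results of these data known. Named genes were all catalytic, scaffold and calcineurin B subunits, members and pathway genes at an unadjusted p under 0.05, and the 2 most abundant members of each role. Other members named were chosen after their values were seen. Alternatives were other pseudocounts (0.1 and 1), other filters (none, or 1 FPKM), quantile normalization, median scaling, robust moderation, no intensity trend, a replicate block, subtraction of a loess fit over locus length (span 0.5) from each library, and leaving out libraries. Of the pathway list, Arpp19 matched no feature, Ptpa is the member Ppp2r4, and Ppef1, Ppef2, Ppm1n and Cip2a were below the filter. Of 64 marker symbols 61 were matched.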

Additional observations from a re-analysis of the deposited data

How the results depend on the processing

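No member passed the adjusted threshold of 0.05 in limma in any of the 17 alternatives. Over 688 planned refits of 43 named genes the lowest adjusted p was 0.110, 648 kept the sign of the difference, and 27 genes kept it in every refit. Part of this count was fixed in advance. The other filters, robust moderation, the fit without an intensity trend and the replicate block leave the difference of a gene unchanged, so its sign could not turn there. The count of members higher at an unadjusted p under 0.05 was 1, and became 3 without a filter, 6 under median scaling, 3 after quantile normalization, 0 without the intensity trend and 3 with the locus length trend removed. Leaving out libraries moved it from 0 (without B-CTRL 2, and without NB-CTRL 2) to 9 (without B-CTRL 3), and the 3 lower members to between 0 (without NB-CTRL 2) and 12 (without B-CTRL 3). In the same fits the share higher was 4.11% of members against 3.09% of all features without a filter, 9.38% against 8.53% under median scaling, 4.69% against 5.84% after quantile normalization, 0% against 5.3% without the intensity trend, and 4.69% against 6.53% with the length trend removed. Without B-CTRL 3 it was 14.1% against 12.9% higher and 18.8% against 13.1% lower, without NB-CTRL 2 it was 0% against 1.74% higher and 0% against 1.93% lower, and without B-CTRL 2 it was 0% against 3.99% higher. An alternative chosen after seeing the data, which left out B-CTRL 1 and 2 together and so assumed that the lone B-CTRL library varies like the others, gave 1 lower member, with medians of 0.13 in PP2A, 0.39 in calcineurin and 0.020 in PP6. The pathway genes lower at an unadjusted p under 0.05 went from 5 to 3 without a filter, beside 6.07% and 2.71% of all features. They lay between 2 (without NB-CTRL 2) and 10 (without B-CTRL 3) when libraries were left out, beside 1.93% and 13.1% of all features. Median scaling, which shifted the median of all features by 0.089, gave medians of 0.17 over all members, 0.17 in PP1 and 0.16 in PP2A. Removing the length trend gave 0.16, 0.16 and 0.16 for the same groups and -0.0047 in PP6. The median of PP1 ranged over 0.028 to 0.15 without single libraries.

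Genes changed sign in some alternatives, none past the threshold, and the cause was not tested. Quantile normalization gave Ppp1r11 -0.021, Ppp2r1a -0.18, Ppp2r3a 0.033, Ppp2r4 -0.11, Ppp2r5c -0.13, Ppp3ca -0.18, Ppp3cb -0.10 and Ppp3cc 0.062. Median scaling gave Ppp1r9b 0.040, Ppp2r5d 0.090, Ppp3cc 0.086 and Ppp5c 0.025. Removal of the length trend gave Ppp2r3a 0.14, Ppp2r5d 0.0088 and Ppp3cc 0.17. Without single libraries the differences ranged from -0.047 to 0.24 for Ppp1r11, -0.37 to 0.015 for Ppp1r12c, -0.0047 to 0.14 for Ppp1r15b, -0.97 to 0.098 for Ppp1r16b, -0.32 to 0.16 for Ppp1r9b, -0.35 to 0.020 for Ppp2r3a, -0.022 to 0.11 for Ppp2r4 and -0.078 to 0.10 for Ppp2r5c. The ranges were -0.17 to 0.15 for Ppp2r5d, -0.27 to 0.30 for Ppp3ca, -0.030 to 0.22 for Ppp3cb, -0.040 to 0.028 for Ppp3cc, -0.071 to 0.12 for Ppp4r2, -0.028 to 0.19 for Ppp4r3a and -0.17 to 0.051 for Ppp5c.

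Deviations of same-numbered libraries correlated at -0.22, 0.072 and 0.15, and those of differently numbered libraries at -0.30 to 0.22. With 3 libraries a group, these values cannot show whether replicate numbers pair the libraries. With the replicate number as a block 0 members were called. At an unadjusted p under 0.05 in limma, 1 member was higher (1.56%, against 4.47% of all features) and 2 were lower (3.12%, against 5.95%). The family medians stayed as before by design, since a block cannot change a difference when every replicate number occurs in both groups. Depth is unknown from FPKM, so counting error cannot be given for low members, and 3 libraries a group limit every interval. B-CTRL 1, with its low Y-linked and high choroid plexus values, and B-CTRL 2, with its low values for long loci, both lie in the B-CTRL group.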
